A study of Mus musculus with 144 samples.

Results

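The 48 genes described here are the subunits and assembly factors of the proteasome in mouse liver and brown adipose tissue (BAT). They are every row of the deposited count tables whose symbol is Psm followed by a letter from a to g and a number, 48 of 21869 genes. The rule used no measured value. Names that only resemble these, such as the pseudogene Psmb5-ps, were left out. The immunoproteasome subunits Psmb8, Psmb9 and Psmb10, 3 in number, are treated apart from the other 45.

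The proteasome is the protease complex that degrades ubiquitin-tagged proteins in the cytosol and nucleus of every cell. Its 20S core stacks outer rings of alpha subunits (Psma genes) on inner rings of beta subunits (Psmb genes), and the cutting sites lie on Psmb5 (chymotrypsin-like), Psmb6 (caspase-like) and Psmb7 (trypsin-like). The 19S cap has a base of ATPases (Psmc genes) and scaffold proteins that unfold the substrate, and a lid (most Psmd genes) that removes its ubiquitin. Psmg genes and a few Psmd genes are chaperones of assembly, Psme genes encode alternative caps, and Psmf1 encodes the regulator PI31. Under interferon signals, and constitutively in immune cells, Psmb8, Psmb9 and Psmb10 replace Psmb5, Psmb6 and Psmb7, which favours peptides for MHC class I presentation.

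The study asked how the hour of feeding shapes daily gene expression, using poly(A) mRNA-seq of wild-type male C57BL/6J mice aged 6 months that lived singly with a running wheel. In the CR-day regimen mice received food pellets holding 70% of their baseline calories within 6 h from the start of the light phase, and in TR-day they ate without a limit on amount within the same 6 h. CR-night and TR-night mice had the matching windows from the start of the dark phase, and AL mice had access to the same purified pellets at all hours. Tissue was taken every 4 h at 12 times over 2 days in constant darkness; the times are the labelled collection hours, and hours of the second day were folded onto 24 h. Liver had 24 libraries in each of the 5 regimens, 1 of letter A and 1 of letter B at each time, which the design calls biological replicates. BAT had CR-day libraries of letter B only and AL libraries of letter A only, 1 per time, so letter and regimen cannot be told apart in BAT. The first CR-day library in BAT, at 0 h, had deposited RPKM but no counts here and entered no test. How an animal's tissues were divided between letters is not given, so the p-values below measure the spread between these libraries.

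Counts summed to 5830040 to 26649153 per liver library (median 10704775) and 6978002 to 11607273 per BAT library (median 9351383), of which mitochondrial genes took a median of 28% in liver and 61.6% in BAT. The tissue labels fitted their markers: BAT libraries held 0 to 1.32 CPM (counts scaled to a fixed library total) of the summed hepatocyte markers, against 41481 to 126920 CPM in liver libraries, and 7043 to 12329 CPM of the summed brown adipocyte markers, against 0.517 to 23.2 CPM in liver. In liver, CR-day letter A and AL letter B stood apart: on the leading component, 43.4% of the variance, their median scores were 71.1 and 76.9, while the other 8 sets of regimen and letter had medians between -44.4 and 36.0. Clock genes placed 5 liver and 2 BAT libraries more than 4 h from their labelled hour, all of them of CR-day or TR-day. Because the letters differ this much, liver levels are given over both letters and within each, and levels with a correction for GC content (a curve centred so that no library shifts as a whole). The GC content of the class is given beside its values; how far it shapes them was not tested further.

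Of the 48 genes, 47 had enough counts to be tested in liver and 46 in BAT; Psmb11, the thymus beta subunit, was tested in neither and Psma8, the testis alpha subunit, not in BAT. A rhythm is a 24 h cosine wave, with its amplitude the log2 distance from mean to peak; rhythms and levels were tested by quasi-likelihood in edgeR, with p-values adjusted by Benjamini-Hochberg over all genes of a tissue and a threshold of 0.05. Promoters of 2 members were chosen by motif, Psmd9 with an antioxidant response element core and Psmd11 without, so this difference was fixed in advance. Of each kind, the member with the smallest p for a changed rhythm in CR-day against AL liver was taken. Before the values, the promoters of these 2 members, whose rhythm also differed between day and night feeding, are shown. They come from RefSeq (GRCm38.p6, plus strand), run from 250 bases before to 50 bases after the gene start, and carry in capitals any match to the antioxidant response element core TGACNNNGC, the NF-Y box CCAAT, the heat shock element core GAANNTTC or the E-box CACGTG, on either strand.
Psmd9 (chr5:123227940-123228239): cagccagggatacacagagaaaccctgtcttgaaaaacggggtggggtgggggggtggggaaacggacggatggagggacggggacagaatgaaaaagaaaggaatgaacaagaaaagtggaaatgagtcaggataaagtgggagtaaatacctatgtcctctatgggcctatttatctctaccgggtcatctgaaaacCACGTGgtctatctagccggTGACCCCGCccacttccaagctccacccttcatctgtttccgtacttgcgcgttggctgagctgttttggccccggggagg
Psmd11 (chr11:80428365-80428664): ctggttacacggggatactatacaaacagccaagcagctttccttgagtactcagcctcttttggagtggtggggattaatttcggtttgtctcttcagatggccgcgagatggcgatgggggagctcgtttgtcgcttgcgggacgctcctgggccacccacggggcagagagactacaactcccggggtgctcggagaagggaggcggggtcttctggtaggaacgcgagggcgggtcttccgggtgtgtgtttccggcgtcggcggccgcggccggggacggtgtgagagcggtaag
Psmd9, which encodes a chaperone of base assembly, had an E-box beginning 51 bases before the gene start and an antioxidant response element core beginning 31 bases before it. These distances are to the RefSeq start; the counted gene has an earlier annotated start in GENCODE, at 123169413 on the same chromosome, outside this window. Psmd11, which encodes the lid subunit Rpn6, held none of the 4 motifs in this window. Promoters were listed for 40 of the 48 genes, 43 promoters in all. The antioxidant response element core stood in 14% of them, those of Psmb5, Psmb6, Psmc6, Psmd12, Psmd9 and Psme4, against 12.4% of all 32851 promoters of that length. The E-box stood in 9.3%, those of Psma4, Psmb10, Psmd9 and Psme3, against 7.15%; CCAAT in 32.6% against 37.4%; and the heat shock element core in 6.98% against 7.86%. A match is a match of letters and was not tested for binding.

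In the fit to the counts as deposited, the fitted peaks of the liver proteasome genes lay closer together in the day-fed than in the night-fed regimens; for CR-night this depended on the GC correction given below, and most of these waves did not pass the rhythm test singly. The measure is the vector length of the fitted peak times, which is 0 when peaks are spread evenly round the day and 1 when they coincide, over the 44 tested members other than the immunoproteasome. It was 0.693 in CR-day, with a mean peak at 9.56 h and 33 members (75.0%) within 3 h of it, and 0.599 in TR-day, with a mean peak at 11 h and 28 members (63.6%) within 3 h. It was 0.139 in CR-night and 0.0954 in TR-night, with 12 members within 3 h in each, and 0.337 in AL, with 15 members (34.1%) around 8.21 h. Over all 11926 genes tested the vector length lay between 0.0137 and 0.0649, and 26.2% to 30.7% of genes peaked within 3 h of their mean. Vector lengths are descriptions over genes of the same libraries, and no test of a difference between regimens was made of them.

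**Figure D1:**
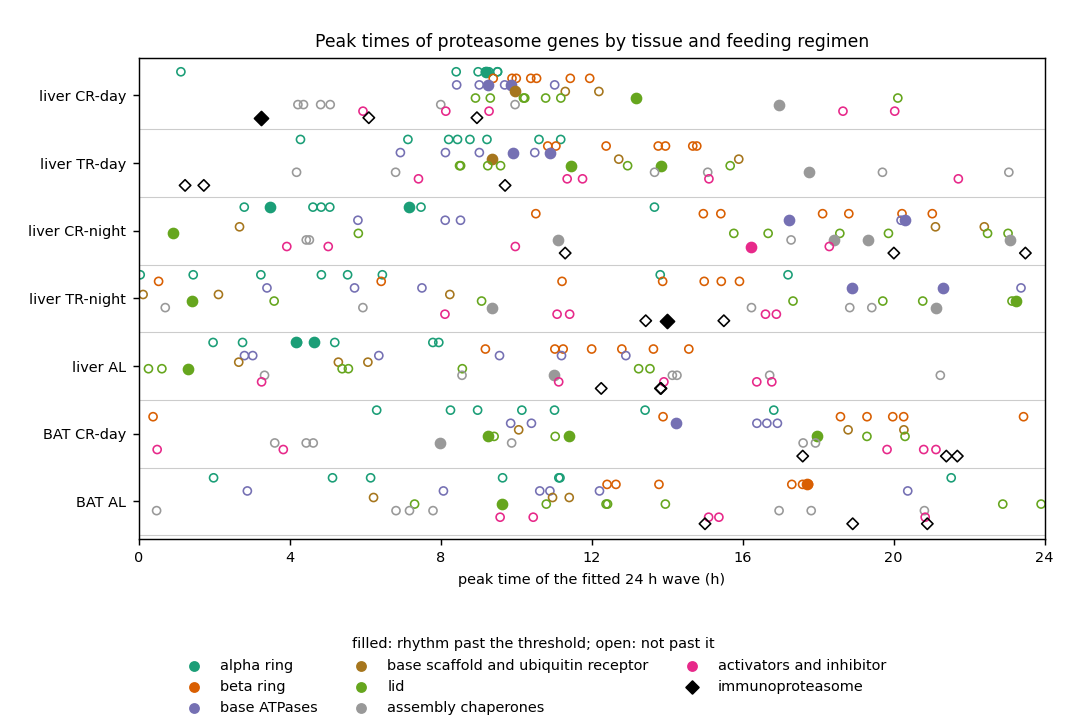
Fitted peak time (hours on the horizontal axis) of each tested member in each liver and BAT regimen, 1 point per gene, coloured by class, with filled points for members that passed the rhythm test. In CR-day and TR-day liver most points gather near 9.56 h and 11 h, and in CR-night, TR-night and AL liver they spread over the day.

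The gathering was present in both letters of the day-fed regimens. In CR-day the vector length was 0.837 around 8.49 h in letter A and 0.552 around 11.2 h in letter B, and in TR-day it was 0.467 around 12.0 h in letter A and 0.644 around 10.1 h in letter B. In CR-night it was 0.143 and 0.132 in letters A and B, in TR-night 0.245 and 0.056, and in AL 0.340 and 0.349 around 9.87 h and 5.47 h. With the centred GC correction CR-day gave 0.701, TR-day 0.600, TR-night 0.169 and AL 0.354, whereas CR-night gave 0.470 around 20.2 h with 22 of 44 members within 3 h. Without the libraries far from the fit, CR-day gave 0.799 and AL 0.325, and without those read off their hour CR-day gave 0.641 and TR-day 0.591.

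Most members stood below their daily mean at 0 h in the day-fed regimens. At 0 h, 4 of 44 members in CR-day letter A and 7 in letter B lay above their own mean over the day, with median deviations of -0.165 and -0.174 on the log2 scale; in TR-day it was 6 in letter A (-0.139) and 8 in letter B (-0.159). Of all genes, 50.0%, 50.8% and 50.1% lay above their mean at 0 h in CR-day letter A, CR-day letter B and TR-day letter A. At 8 h, 41 members in CR-day letter A (0.225) and 29 in letter B (0.129) lay above their mean, and 22 in TR-day letter A (0.00898) and 38 in letter B (0.139). At 12 h it was 29 in CR-day letter A (0.0133) and 34 in letter B (0.136), and 41 in TR-day letter A (0.143) and 34 in letter B (0.0817). Of all genes 47.2% to 51.7% lay above their mean at 8 h and 50.9% to 52.2% at 12 h in these sets. In CR-night the number above the mean ran from 15 to 29 at any hour, in TR-night from 15 to 31, in AL letter A from 17 to 34 and in AL letter B from 10 to 34. The mean correlation between pairs of members (log2 CPM, within a set) was 0.495 in CR-day letter A and 0.0248 to 0.189 in the other liver sets, as a description over 12 libraries each that share depth and composition. Amplitudes stayed small: the median over members lay between 0.139 and 0.171, against 0.179 to 0.269 over all genes.

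**Figure D2:**
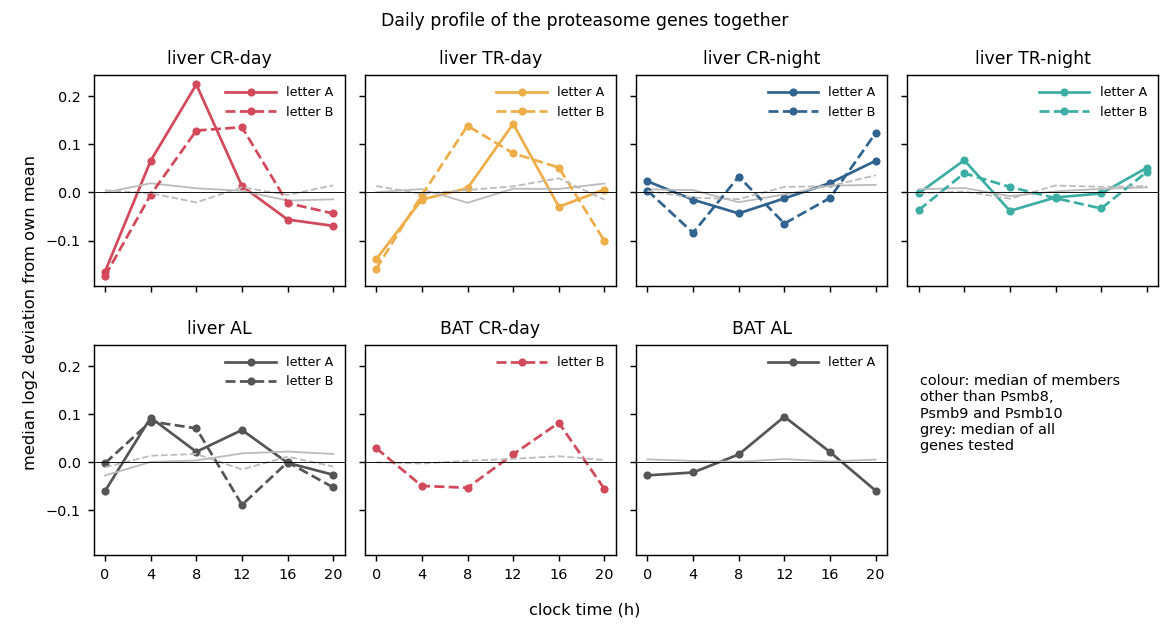
Median log2 deviation of the members from their own mean over the day (vertical axis; 44 members in liver, 43 in BAT) by hour (horizontal axis), for each regimen and letter, with the median of all genes tested in grey. CR-day and TR-day liver lie below 0 at 0 h in both letters, with medians of -0.139 to -0.174, and above it at 8 h and 12 h.

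The parts of the complex differed in how closely they gathered. In CR-day the beta ring had a vector length of 0.977 around 10.5 h with 7 of 7 tested members within 3 h, the base ATPases 0.978 around 9.55 h with 6 of 6, the alpha ring 0.815 around 8.65 h with 7 of 8, and the lid 0.729 around 10.9 h with 7 of 8. The assembly chaperones had 0.592 around 6.21 h, and the activators and inhibitor 0.177. In TR-day the order was similar, with 0.936 around 9.24 h for the ATPases, 0.922 around 13.1 h for the beta ring, 0.873 around 8.55 h for the alpha ring and 0.203 for the assembly chaperones. In AL the alpha ring peaked around 4.8 h (0.869, 7 of 8) and the beta ring around 12.1 h (0.908, 7 of 7). In AL letter B alone the alpha ring peaked around 5.52 h (0.699) and the beta ring around 7.33 h (0.616). The median GC content was 45.3% in the alpha ring and 51.7% in the beta ring, and the part of GC content in these hours was not tested.

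In the fit to the counts as deposited few members passed the rhythm test on their own. They numbered 6 of 44 in CR-day (16.4% of all genes passed), 6 in TR-day (15.5%), 10 in CR-night (35.3%), 6 in TR-night (26.4%) and 4 in AL (12.4%); as shares these were 13.6%, 13.6%, 22.7%, 13.6% and 9.09%, each below that of all genes. The GC correction without centring gave 26 of 44 in CR-day and 1 in AL, and the centred one 13 in CR-day and 11 in TR-day. Letters alone gave 2 to 7 in AL, 4 to 8 in CR-night and 2 to 8 in TR-night. The shares of all genes under these settings are not given here, so these counts cannot be set against them. Psmd11 and Psmd9 passed in all 5 regimens and Psmc2, the ATPase Rpt1, in the 4 restricted ones. The ATPase Rpt3 (Psmc4) and the scaffold Rpn2 (Psmd1) passed in CR-day and TR-day; Psma4, the alpha3 subunit, passed in CR-day and the lid subunit Rpn9 (Psmd13) in TR-day. The ATPase Rpt6 (Psmc5) and the base chaperone Psmd5 passed in CR-night and TR-night. Psma1 and Psma5, alpha6 and alpha5, passed in AL with peaks at 4.16 h and 4.64 h. In CR-night Psma7 (alpha4), Psma5, the core chaperones Psmg3 and Psmg4, and Psme3 (the nuclear cap PA28 gamma) also passed, and in TR-night the lid subunit Rpn8 (Psmd7).

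Psmd11 had the smallest p among the members for a changed rhythm in each comparison of a day-fed regimen with AL or with its night-fed counterpart. Its amplitude was not always the highest: in TR-day Psmd9 had 0.48 and Psmd11 0.29 (log2). The Psmd11 product Rpn6 is a clamp that ties the lid to the core, and its abundance is known to govern assembly of the full complex in human embryonic stem cells. In CR-day liver its lowest, median and highest libraries had 64.5, 89.1 and 109 CPM, against 56.6, 84.1 and 112 CPM in AL. TR-day libraries had 56.4, 85.4 and 112 CPM, CR-night libraries 50.0, 91.2 and 117 CPM, and TR-night libraries 52.5, 89.6 and 124 CPM. Over the whole day the ranges overlapped almost fully, and the high libraries came at other hours.

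By hour the day-fed regimens were near the reverse of the others. At 0 h the 4 CR-day libraries had 65.7 to 70.1 CPM of Psmd11 and the 4 AL libraries 92.2 to 111.7 CPM, and at 12 h CR-day had 100.4 to 101.9 CPM and AL 56.6 to 74.7 CPM, without overlap at either hour. The means at 0, 4, 8, 12, 16 and 20 h were 67.1, 68.8, 99.2, 101, 98.5 and 87.5 CPM in CR-day and 103, 98.6, 81.5, 66.8, 71.6 and 86.8 CPM in AL (4 libraries each). TR-day had means of 72.8 CPM at 0 h and 97.3 CPM at 12 h, CR-night 109 and 58.3 CPM, and TR-night 106 and 61.5 CPM.

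The fitted peak of Psmd11 was at 13.2 ± 0.521 h (SE) in CR-day and 13.8 ± 0.595 h in TR-day, against 0.903 ± 0.392 h in CR-night, 1.42 ± 0.425 h in TR-night and 1.31 ± 0.534 h in AL. Its amplitude was 0.33 in CR-day and 0.29 in TR-day, against 0.44 in CR-night, 0.40 in TR-night and 0.32 in AL, or a peak 1.58 times the trough in CR-day and 1.56 times in AL. edgeR's adjusted p for a changed rhythm was 1.15e-12 for CR-day against AL, 5.28e-11 for TR-day against AL, 4.81e-16 for CR-day against CR-night and 1.05e-13 for TR-day against TR-night; the first and second share the AL libraries. Within letters A and B the peaks were 13.0 and 13.3 h in CR-day, 15.2 and 12.9 h in TR-day, 1.19 and 0.699 h in CR-night, 1.54 and 1.33 h in TR-night and 1.60 and 1.02 h in AL.

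**Figure D3:**
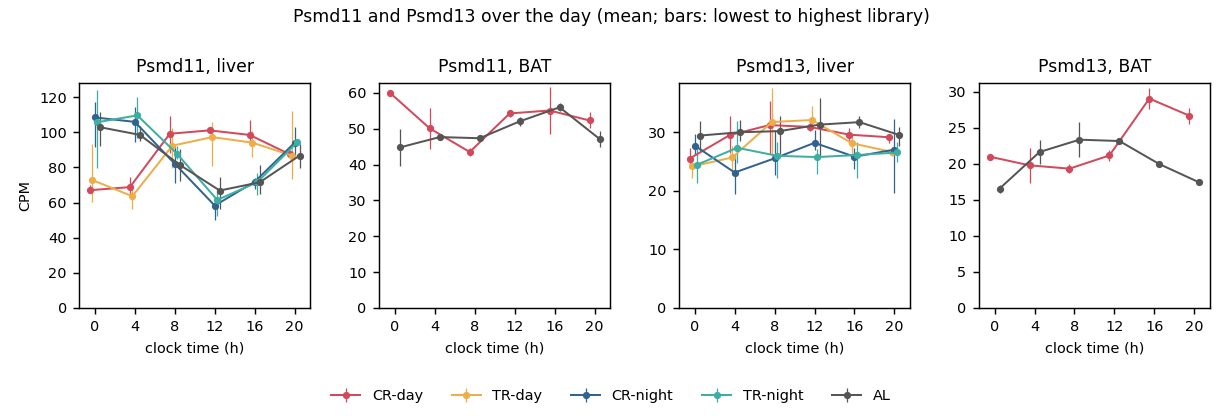
Mean CPM (vertical axes, from 0) of Psmd11 and Psmd13 by hour (horizontal axes) in each liver and BAT regimen, with bars from the lowest to the highest library at that hour. Psmd11 in CR-day and TR-day liver is high near 12 h where AL is low, and Psmd13 in CR-day BAT is highest at 16 h, with a mean of 29.0 CPM against 19.9 CPM in AL.

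Against AL, 6 of 44 members had a changed rhythm in CR-day (21.9% of all genes did) and 5 in TR-day (16.3%). Beside Psmd11, Psmc2 peaked at 9.87 h in CR-day and 10.9 h in TR-day, against 2.80 h in AL (adjusted p 0.00111 and 0.00168). Psmd9 peaked at 17 h in CR-day and 17.8 h in TR-day, against 11 h in AL (adjusted p 0.00532 and 1.12e-05), later in CR-day and TR-day than the other members named here. Psmd1 peaked at 9.96 h in CR-day and 9.36 h in TR-day, against 2.65 h in AL (adjusted p 0.0125 and 0.0134). Psmc4 had an amplitude of 0.33 with a peak at 9.26 h in CR-day and 0.02 in AL (adjusted p 0.0103). Psmd7 was called in both (adjusted p 0.0469 and 0.0232), and was no longer called with the centred GC correction (0.326 and 0.205). Under that correction the counts were 10 and 8, and without letter A they were 3 in CR-day and, without the libraries far from the fit, 3 in TR-day. Part of the Psmd9 exons, 25.5%, overlaps the noncoding gene Gm26745 on the other strand, and 4.1% of those of Psmd1 overlaps Gm21972 on its own strand; whether counting used strand is not given.

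Day against night feeding of the same kind gave 13 and 10 changed rhythms. With CR-day against CR-night 13 of 44 changed rhythm (34.0% of all genes): Psmd11, Psmc2 (9.87 h in CR-day and 20.3 h in CR-night, adjusted p 3.43e-06), Psmc4 (9.26 h and 20.2 h, 5.65e-06), Psmd9 (17 h and 11.1 h, 0.000203), Psme3, Psmc5, the deubiquitinase Psmd14, the beta3 subunit Psmb3, Psmd7, Psmd1, Psmg3, the ubiquitin receptor Psmd4 and the core chaperone Psmg1. With TR-day against TR-night 10 did (25.8%): Psmd11, Psmd9 (17.8 h in TR-day and 9.37 h in TR-night, adjusted p 1.66e-07), Psmc2 (10.9 h and 21.3 h, 1.92e-05), Psmd7 (9.25 h and 23.2 h, 0.000364; 0.0778 with the centred GC correction), Psmc4, Psmc5, Psmd14, Psmd5, Psmd1 and Psmd13. The members' share was below that of all genes in both comparisons. Without letter A the CR comparison gave 8, and with the centred GC correction 20; without letter B the TR comparison gave 6.

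Amount of food at the same hour, and night feeding against AL, gave no changed rhythm by edgeR. With CR-night against AL 0 members were called (0.0252% of all genes), with TR-night against AL 0 (0.00839%), with CR-day against TR-day 0 (0.00839%) and with CR-night against TR-night 0 (0.0%). At an unadjusted p under 0.05 the numbers were 2, 2, 0 and 1, and DESeq2 called 0 in each as well. The share of all genes under that unadjusted threshold is not given here, so these numbers cannot be set against it. A p past no threshold does not show that the rhythms were alike.

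In BAT the fitted peaks lay less close together than in CR-day and TR-day liver. Over 43 tested members the vector length was 0.204 around 15.8 h in CR-day, with 12 within 3 h, and 0.310 around 11.8 h in AL, with 18 within 3 h. The vector length of all genes in BAT is not given here. The number of members above their own mean was highest at 16 h in CR-day, with 34 (52.8% of all genes). In AL it was highest at 12 h, with 32 (51.3% of all genes). Rhythms passed the test in 5 of 43 in CR-day (15.1% of all genes) and 2 in AL (10.5%). Those in CR-day were Psmd13, the lid subunits Rpn5 (Psmd12, 9.24 h) and Rpn7 (Psmd6, 11.4 h), Psmc4 (14.2 h) and the core chaperone Psmg2 (7.99 h), and those in AL were Psmd13 and Psmb3 (17.7 h). DESeq2 called 9 in CR-day and 4 in AL, and either day alone 0 in both. The GC correction without centring gave 0 in CR-day and 5 in AL and the centred one 3 and 2; AL also had 0 without a filter and without the libraries far from the fit. Psmd11 had no called rhythm in BAT (adjusted p 0.402 in CR-day and 0.355 in AL), with 42.4, 53.4 and 61.6 CPM in its lowest, median and highest CR-day library and 39.6, 48.6 and 57.2 CPM in AL.

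Psmd13 was the member that shifted most clearly in BAT. Its lowest, median and highest libraries had 17.3, 21.9 and 30.4 CPM in CR-day and 16.0, 20.2 and 25.7 CPM in AL. At 16 h the CR-day libraries had 27.6 to 30.4 CPM and the AL libraries 19.6 to 20.3 CPM, without overlap. It peaked at 18.0 ± 0.707 h in CR-day BAT and 9.62 ± 0.728 h in AL BAT (adjusted p 0.00265). Psmd12 (9.24 h in CR-day and 23.9 h in AL, adjusted p 0.0288) and Psmc2 (10.4 h and 20.4 h, 0.0416) also changed, 3 of 43 in all (12.1% of all genes); DESeq2 called 6, either day alone 0, and 1 was called without the libraries far from the fit. The exons of Psmd13 overlap Sirt3 on the other strand over 342 bases (10.1%). Psmd13 had a mean count of 319.0 and Sirt3, a mitochondrial deacetylase, 348.2 over the libraries, and the part of Sirt3 reads was not tested.

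Set against each other, the tissues answered CR-day differently at 2 members' rhythms (4.31% of all genes): Psmd11 (adjusted p 4.85e-06) and Psmd13 (0.000867). Psmd11 peaked 11.9 h apart in CR-day and AL liver and had no called rhythm in BAT, and Psmd13 in liver had 24.2, 29.4 and 35.4 CPM in the lowest, median and highest CR-day library and 25.9, 30.5 and 35.8 CPM in AL. For level, 1 member differed (2.16% of all genes): Psmd2, the scaffold Rpn1, was 0.33 ± 0.07 higher in CR-day than in AL in BAT and -0.20 in liver, a difference of 0.535 (log2, adjusted p 0.0158). The liver value was called over both letters (adjusted p 0.0415 in the liver fit) but was 0.15 in letter A and -0.61 in letter B. In all these tissue comparisons BAT held only letter A in AL and only letter B in CR-day, whereas liver held both letters. Between the tissues under AL, Psmd11 alone among the members differed in rhythm (edgeR's adjusted p 0.000447, 2.09% of all genes). In level 26 of 43 differed, 8 higher and 18 lower in BAT (78.4% of all genes). The lower ones with the smallest p were Psmd9 (-1.48 ± 0.10), Psmd11 (-0.60), Psmd5 (-0.75) and Psmf1 (-1.12), and the higher ones Psma6 (alpha1, 0.40), Psmd10 (the base chaperone gankyrin, 0.45), Psme2 (PA28 beta, 0.25) and Psmd8 (Rpn12, 0.31).

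In RPKM, the deposited scale that allows levels to be compared between genes, Psmb1 (beta6) was the highest member in CR-day and AL liver, at 61.2 ± 9.6 in CR-day and 66.6 ± 8.9 in AL (SD, n = 24), and Psma8 the lowest or next to lowest in every liver regimen, at means of 0.313 to 0.486. Psmc6, the ATPase Rpt4, had 47.8, 59.6, 57.0, 59.4 and 42.5 RPKM in CR-day, TR-day, CR-night, TR-night and AL, and 38.9 and 30.8 RPKM in CR-day and AL BAT. These deposited values are relative to all reads, mitochondrial ones included, so tissues are compared by the fitted folds only. In bulk tissue fewer cells of a type and less RNA per cell cannot be told apart.

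In mean level over the day the members' share of calls against AL was near that of all genes, and the alpha and beta rings had opposite signs before GC correction. Higher and lower members numbered 14 and 21 of 44 in CR-night (79.2% of all genes were called), 16 and 18 in TR-day (80.4%), and 16 and 19 in TR-night (80.7%), but 4 and 5 in CR-day (19.6%); all 4 comparisons share the AL libraries. The members' medians were -0.07, 0.03, -0.00 and -0.04 in that order, against -0.02, -0.03, -0.01 and 0.01 over all genes. With the centred GC correction the split became 6 higher and 32 lower in CR-night, 10 and 26 in TR-day, 10 and 30 in TR-night and 2 and 6 in CR-day, with medians of -0.34, -0.24, -0.26 and -0.10.

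Calls that held over all libraries and within each letter, in the same direction, numbered 3 higher and 18 lower in CR-night (43.2% of all genes), 9 and 15 in TR-day (57.1%), 11 and 15 in TR-night (61.9%) and 0 in CR-day (2.13%). The last count is by edgeR. In CR-day against AL over all libraries 17 members had an unadjusted p under 0.05, and DESeq2 called 10 there without a split by letter. For neither of these 2 counts is the share of all genes given here. In CR-day the direction turned between letters: Psmd7 was -0.19 in letter A and 0.59 in letter B, Psmc6 -0.60 and 1.07, and Psmg3 (PAC3) 0.29 and -1.28. The 9 calls became 36 without letter A, 30 without letter B and 23 without AL letter B and CR-day letter A.

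Most beta ring genes fell in CR-night, TR-day and TR-night. Of its 7 tested members, 7 were called lower in CR-night and 6 each in TR-day and TR-night, and none higher (of all genes 41.1%, 42.1% and 41.3% were lower), with medians of -0.83, -0.75 and -0.74; within letter A the medians were -0.64, -0.88 and -1.07, within letter B -0.72, -0.48 and -0.53, and with the centred GC correction -0.82, -0.70 and -0.91. Psmb2, Psmb3, Psmb4, Psmb5, Psmb6 and Psmb7 were called lower in both letters in all 3 comparisons; of all 11926 genes 2735, 3663 and 3839 were. In CR-day 2 of 7 were called lower, with a median of -0.25, but with 0.15 in letter A and -0.60 in letter B.

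The alpha ring gave the opposite sign, but not under the GC correction. Of its 8 members 4 were called in CR-night and 6 each in TR-day and TR-night, all higher (of all genes 38.1%, 38.3% and 39.4% were higher), with medians of 0.19, 0.32 and 0.29; the centred GC correction gave -0.18, -0.07 and -0.08. Calls in both letters numbered 1 (Psma8, with a mean under 1 CPM in AL), 2 and 4. Within letter A the medians were -0.15, 0.10 and 0.18, and within letter B 0.55, 0.55 and 0.51. The alpha genes have a median GC content of 45.3%, the lowest of the classes, against 49.7% over all genes.

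**Figure D4:**
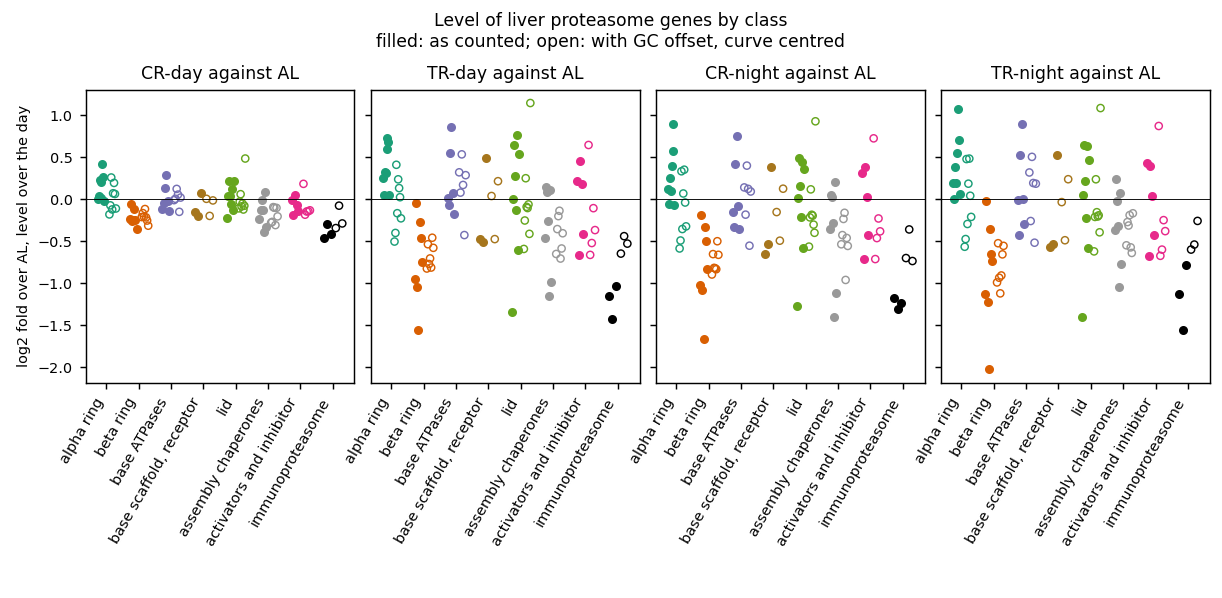
Log2 fold over AL (vertical axis) in the mean level over the day of each tested member in CR-day, TR-day, CR-night and TR-night liver, grouped by class, with filled points as counted and open points with the centred GC correction. All beta ring and immunoproteasome points lie below 0 in TR-day, CR-night and TR-night, with beta ring medians of -0.75, -0.83 and -0.74 as counted, whereas filled and open points of the alpha ring lie apart.

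Of the catalytic beta subunits Psmb5 and Psmb6 had larger falls than Psmb7 in the counts as deposited, an order that did not hold with the centred GC correction. Psmb5 had 2.12, 12.3 and 23.6 CPM in its lowest, median and highest CR-day library, 1.60, 4.56 and 11.5 CPM in TR-day, 2.14, 4.65 and 7.85 CPM in CR-night and 1.38, 3.15 and 6.20 CPM in TR-night, against 1.24, 15.8 and 23.5 CPM in AL. The ranges overlapped, since AL holds low libraries. Its log2 fold (± SE) against AL was -1.66 ± 0.21 in CR-night, -2.02 ± 0.22 in TR-night, -1.56 ± 0.21 in TR-day and -0.25 in CR-day, the last of which was not called (adjusted p 0.363). The letters differed: in RPKM Psmb5 had 24.2 ± 2.95 in CR-day letter A and 5.28 ± 2.56 in letter B, and 9.67 ± 4.06 in AL letter A and 26.4 ± 3.55 in AL letter B (SD, n = 12). Within letter A its fold was 1.12 in CR-day and -1.03, -0.83 and -1.61 in TR-day, CR-night and TR-night, and over both letters the centred GC correction gave -0.12, -0.70, -0.82 and -1.12. Its GC content, 57.1%, is the highest among the beta subunits.

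The log2 fold of Psmb6 was -1.04, -1.08 and -1.22 in TR-day, CR-night and TR-night, and -0.26 in CR-day (adjusted p 0.101); with the centred GC correction it was -0.77, -0.82, -0.93 and -0.21. Psmb7 was -0.27, -0.32 and -0.35 in the same order, and -0.12 in CR-day (adjusted p 0.106); with the centred GC correction it was -0.81, -0.83 and -0.91. Its GC content, 44.8%, is the lowest of the beta subunits. In CR-day BAT against AL Psmb6 was 0.07 (adjusted p 0.708), Psmb7 0.19 (0.0768) and Psmb5 0.22 (0.366), none of them called; Psmb5 had 7.47, 11.6 and 19.3 CPM in its lowest, median and highest CR-day library and 6.88, 9.72 and 14.8 CPM in AL.

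Outside the beta ring, Psmg3 fell by 1.40, 1.16 and 1.04 on the log2 scale in CR-night, TR-day and TR-night, and the lid subunit Rpn3 (Psmd3) fell by 1.27, 1.34 and 1.40; Psmd3 fell by 0.53, 0.86 and 1.13 in letter A alone. Psmg3 shares 9.7% of its exon bases with Gm26938 on the same strand. Members that rose were Psmc6 (0.76, 0.86 and 0.90 in those regimens; 0.12, 0.17 and 0.19 with the centred GC correction) and Psmd7 (0.36, 0.54 and 0.47; 0.93, 1.15 and 1.09). Psmd12 (0.65 in TR-day and in TR-night) rose in both letters, as did Psmd14 (0.77 and 0.63), which the centred GC correction put at -0.06 and -0.19. Psma3, alpha7, rose by 0.58, 0.68 and 0.71 in CR-night, TR-day and TR-night and stood at -0.04, 0.03 and 0.04 with that correction.

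Between the restricted regimens, the level calls for CR-day rested largely on its letter A. Called in both letters in the same direction were 3 members for CR-day against CR-night, all higher (Psmd4, Psmb4 and Psmd8), and 0 for CR-day against TR-day. The share of all genes called in both letters is not given for these comparisons, so these counts cannot be set against it. With CR-day against CR-night 18 members were higher and 9 lower (67.9% of all genes), and with CR-day against TR-day 15 and 16 (69.5%); the centred GC correction gave 27 and 5, and 20 and 9. With TR-day against TR-night 1 was higher (3.42%), Psmc5 by 0.35. With CR-night against TR-night 0 were called by edgeR (0.511% of all genes) and 0 by DESeq2, with 7 at an unadjusted p under 0.05. The share of all genes at that unadjusted threshold is not given here. Within letter A alone (without letter B) CR-night against TR-night gave 20 and TR-day against TR-night 4. Without letter A CR-day against CR-night gave 1 and CR-day against TR-day 0, and without AL letter B and CR-day letter A they gave 4 and 0.

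The letters themselves differed in CR-day and AL. With letter A against letter B, 14 members were higher and 23 lower in CR-day (76.0% of all genes were called), 2 and 12 in TR-day (15.0%), 1 and 13 in CR-night (13.3%), 2 and 15 in TR-night (21.1%), and 22 and 7 in AL (58.1%). In CR-day all 8 alpha genes were lower in letter A (median -0.56) and 6 of 7 beta genes higher (0.58), and in AL 6 alpha genes were higher (0.37). For these rings the level difference between CR-day and AL over both letters averages differences of opposite sign.

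In BAT the level change was one of modest rises. With CR-day against AL 6 of 43 members were called (6.57% of all genes), all of them higher, with a median of 0.11 over the members and -0.00 over all genes. They were Psmd2 (0.32 ± 0.07, adjusted p 0.00799), Psmd14 (0.34 ± 0.08, 0.0106), Psmb1 (0.23 ± 0.05, 0.0132), Psmc6 (0.30 ± 0.08, 0.0238), the ATPase Rpt2 (Psmc1, 0.30, 0.0423) and Psma7 (0.29, 0.0488). DESeq2 called 11, the GC correction without centring 1, and either day alone 0.

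The immunoproteasome genes fell in TR-day, CR-night and TR-night liver against AL. All 3 were called lower in each over both letters, as were 42.1%, 41.1% and 41.3% of all genes. All 3 were also called lower within each letter, as were 3663, 2735 and 3839 of all 11926 genes. In CR-day 2 of 3 were called lower over both letters (19.6% of all genes were called). None was called in the same direction within each letter (2.13% of all genes). Psmb8, beta5i, had 4.36, 10.9 and 17.0 CPM in its lowest, median and highest CR-day library, 2.74, 6.45 and 10.8 CPM in TR-day, 4.25, 6.19 and 10.7 CPM in CR-night and 3.76, 6.02 and 12.0 CPM in TR-night, against 4.41, 15.4 and 20.3 CPM in AL. All sets overlapped in their ranges. Its log2 fold was -0.46 ± 0.12 (SE) in CR-day and -1.15 ± 0.13, -1.18 ± 0.13 and -1.13 ± 0.13 in TR-day, CR-night and TR-night, and in the same order -0.34, -0.65, -0.70 and -0.60 with the centred GC correction.

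Psmb9, beta1i, was -0.42 in CR-day and -1.04, -1.23 and -0.78 in TR-day, CR-night and TR-night, and -0.29, -0.53, -0.73 and -0.26 with the centred GC correction, where the first and last were not called (adjusted p 0.131 and 0.102). Psmb10, beta2i, was -0.29 in CR-day (adjusted p 0.196) and -1.43, -1.30 and -1.55 in TR-day, CR-night and TR-night, and -0.44, -0.36 and -0.54 in the last 3 with that correction. Their GC contents run from 54.3% to 58.4%, above every class median among the other members. In CR-day the letters disagreed: Psmb8, Psmb9 and Psmb10 were 0.01, 0.41 and 0.87 in letter A and -1.0, -1.26 and -1.56 in letter B.

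**Figure D5:**
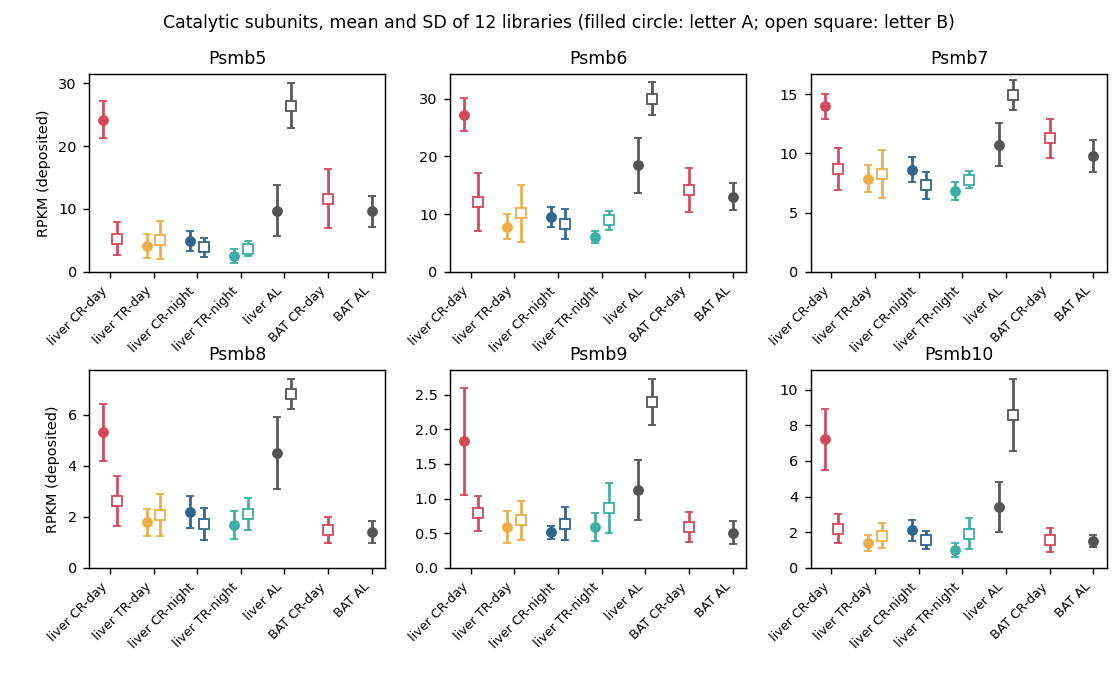
RPKM (vertical axes, from 0; mean and SD of 12 libraries) of the catalytic subunits Psmb5, Psmb6 and Psmb7 and their immunoproteasome counterparts Psmb8, Psmb9 and Psmb10 by tissue and regimen, with filled circles for letter A and open squares for letter B. CR-day letter A and AL letter B lie highest for Psmb5, at means of 24.2 and 26.4 RPKM, against 2.53 to 9.67 RPKM in the other liver sets.

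Most immune cell markers were also lower in CR-night, TR-day and TR-night than in AL. Of 8 tested in liver, those in CR-day against AL ran from -0.26 for Cd74 to 0.31 for Ptprc without a call (median -0.14). Within letters 4 were higher and 0 lower in CR-day letter A (median 0.50), and 1 and 5 in letter B (-0.75). In the other regimens 6 were lower and 1 higher in CR-night (median -0.83; 79.2% of all genes were called), 6 and 1 in TR-day (-1.05; 80.4%), and 5 and 1 in TR-night (-1.0; 80.7%). The higher one was the leukocyte gene Ptprc, at 0.85, 0.70 and 0.95. The 12 markers summed to 110 to 431 CPM in CR-day letter A and 41.8 to 309 in letter B, 57.9 to 128 and 33.1 to 85.7 in TR-day, 65.5 to 169 and 37.6 to 120 in CR-night, 34.6 to 167 and 46.2 to 137 in TR-night, and 49.8 to 160 and 95.3 to 538 in AL. None was at 0 in every library of any liver set; Nkg7, Cd79a and Cd3g had mean counts under 3 in some. Lower levels against AL were not limited to immune cell markers. Of 5 hepatocyte markers tested in liver, CR-night had 3 lower and 2 higher (median -0.50). TR-day had 3 lower and 1 higher (-0.51), and TR-night likewise 3 and 1 (-0.59). The part of immune cells in the immunoproteasome values was not tested.

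The ratios of the immunoproteasome subunits to their constitutive partners did not share a direction between sets. The ratio of Psmb8 to Psmb5 in RPKM was 0.223 in letter A and 0.576 in letter B of CR-day, 0.497 and 0.461 in TR-day, 0.472 and 0.487 in CR-night, 0.711 and 0.618 in TR-night, and 0.537 and 0.262 in AL (means of 12 libraries). For Psmb10 over Psmb7 the order of the letters was the other way, with 0.518 in letter A and 0.252 in letter B of CR-day and 0.313 and 0.575 in AL, and Psmb9 over Psmb6 had 0.0682 and 0.0735 in CR-day and 0.0594 and 0.0804 in AL. In BAT the ratio of Psmb8 to Psmb5 was 0.135 in CR-day and 0.145 in AL, that of Psmb9 to Psmb6 0.0432 and 0.0397, and that of Psmb10 to Psmb7 0.137 and 0.154.

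In daily rhythm the immunoproteasome genes were called singly: Psmb9 in CR-day (peak at 3.23 h, adjusted p 0.0232) and Psmb10 in TR-night (14 h, 0.0322). Psmb10 changed rhythm in CR-day against AL (6.10 h in CR-day and 13.8 h in AL, adjusted p 0.0358) and Psmb8 in CR-day against CR-night (8.96 h and 20.0 h, 0.0471). All 3 were higher in CR-day than in CR-night (median 0.81) and than in TR-day (0.69) over both letters, and within letter B Psmb8, Psmb9 and Psmb10 were 0.46, 0.14 and 0.33 against CR-night (adjusted p 0.0539, 0.66 and 0.179). In BAT they were 0.02, 0.13 and -0.03 in CR-day against AL (adjusted p 0.965, 0.748 and 0.95), and Psmb8 had 2.92, 4.35 and 7.0 CPM in its lowest, median and highest CR-day library and 1.49, 5.00 and 6.29 CPM in AL. Between tissues under AL they were lower in BAT than in liver, at -1.52, -1.26 and -1.43 (log2) for Psmb8, Psmb9 and Psmb10. The BAT AL libraries were of letter A only, and the liver AL ones of both letters. In liver AL, letter A over letter B was -0.35, -0.85 and -1.09 for these genes, and a tissue fold within letter A was not fitted.

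Genes that work beside these members were counted from lists chosen by function, with earlier results of these data known. Of 9 other proteasome proteins tested in liver, 4 were higher and 0 lower in CR-day than in AL (19.6% of all genes were called), 6 and 1 in TR-day (80.4%), 6 and 2 in CR-night (79.2%), and 6 and 1 in TR-night (80.7%). In CR-day the direction turned between letters, with 1 higher and 5 lower in letter A (median -0.43) and 7 and 1 in letter B (0.90). The ubiquitin receptor Adrm1 fell by 1.27 in TR-day and 1.31 in CR-night on the log2 scale, and the proteasome-bound deubiquitinases Uchl5 (1.01) and Usp14 (0.87) rose in TR-day. Of 14 ubiquitin and shuttling genes 3 changed rhythm in CR-day against AL, a share near the 21.9% of all genes: the shuttle factors Ubqln1 (12.3 h in CR-day and 22.6 h in AL, adjusted p 0.000158) and Rad23b (8.72 h and 1.13 h, 0.000393) and the segregase Vcp (13.2 h and 4.33 h, 0.000488). In BAT 2 of the 14 changed rhythm in CR-day against AL, a share near the 12.1% of all genes. The polyubiquitin gene Ubb, 1 of them, peaked at 18.5 h in CR-day and 8.83 h in AL (edgeR's adjusted p 0.00826), hours near those of Psmd13.

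Of 9 regulators, 2 changed rhythm in CR-day against AL in liver, again a share near the 21.9% of all genes: the NF-Y subunit Nfya (2.19 h in CR-day and 18.0 h in AL, adjusted p 0.00371) and Nfe2l2, which encodes the antioxidant factor NRF2 (5.05 h and 21.9 h, 0.0278). Nfe2l2 did so in TR-day too (5.93 h in TR-day, adjusted p 0.015). In BAT 3 changed (12.1% of all genes did), Nfya at 4.02 h in CR-day and 18.7 h in AL (adjusted p 0.000453) among them. Of 10 antigen presentation genes 2 changed rhythm in CR-day against AL liver, a share near the 21.9% of all genes. The MHC class I transactivator Nlrc5 was among them (1.79 h in CR-day and 8.84 h in AL, edgeR's adjusted p 0.00156). In level 3 of the 10 tested were higher and 7 lower in TR-day, and 3 and 5 each in CR-night and TR-night (80.4%, 79.2% and 80.7% of all genes were called), with the peptide transporter Tap2 at -1.48 and the MHC heavy chain H2-K1 at -0.73 in CR-night, and in CR-day 1 was lower, Tap1 at -0.42. By letter, 6 were higher and 2 lower in CR-day letter A, and 2 and 5 in letter B. Exons of Tap1 overlap 5.8% of those of Psmb9 on the other strand.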

How the data were processed

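The submitters' processing notes name FastQC, cutadapt, STAR and featureCounts; their versions, genome build and use of strand are not given in the sources used here. Raw counts per gene were deposited for each tissue, and the authors also deposited RPKM, scaled by gene length and library total. Counts were available for 143 of the 144 samples, since the CR-day BAT library at 0 h had RPKM only, and 1 further column of values that repeated another library was not used.

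Counts were scaled by TMM and filtered with filterByExpr by group, leaving 11926 genes in liver, 10966 in BAT and 12799 in a joint fit of CR-day and AL in both tissues. edgeR 4.0.16 in R 4.3.3 fitted a mean and a 24 h cosine and sine per regimen to all libraries of a tissue, and quasi-likelihood tests were adjusted by Benjamini-Hochberg over all genes, with a threshold of 0.05; DESeq2 1.42.0 was an alternative. CPM are normalized with a prior count of 2 for log values. The tests were also run on simulated counts that held no difference between letters. Those counts do not check the tests under the letter differences described above. The members and gene lists were chosen with earlier results of these data known. Named singly were the catalytic and immunoproteasome subunits and up to 4 members per comparison and direction with the smallest p, and up to 3 genes of each other list. Alternatives were DESeq2, its size factors, no filter, GC correction, the replicate block, leaving out each letter (in BAT each day) and, chosen after seeing the data, a centred GC curve and leaving out the sets or libraries that stood apart or off their hour. Counting error is widest for low genes such as Psmg3 and Psmg4. Some rhythm results of the other gene lists are not reported here.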

Additional observations from a re-analysis of the deposited data

Results flagged for a closer look

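For 3 members the effect of CR-day against AL differed between BAT and liver by edgeR's test of that difference, adjusted over all genes of the joint fit. Psmd2, the scaffold Rpn1, differed in level by 0.535 (log2, adjusted p 0.0158), being higher in CR-day BAT and lower in CR-day liver. Psmd11, the lid subunit Rpn6, differed in its change of rhythm with an adjusted p of 4.85e-06, and Psmd13, the lid subunit Rpn9, with an adjusted p of 0.000867. In BAT the regimens are also the letters, so the regimen and the letter cannot be told apart in these differences. In liver CR-day letter A and AL letter B stood apart in level, and Psmd2 in CR-day against AL was 0.15 in letter A and -0.61 in letter B.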

How the results depend on the processing

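Leaving out letters or days moved the most counts of members. In BAT each day alone gave 0 for level, changed rhythm and rhythm in AL and in CR-day. In liver a single letter gave 30 to 36 level calls for CR-day against AL, 1 to 35 for CR-day against CR-night, 0 to 38 for CR-day against TR-day, 0 to 20 for CR-night against TR-night and 1 to 4 for TR-day against TR-night. Changed rhythms then numbered 3 to 8, 8 to 10 and 6 to 7 for CR-day against AL, CR-day against CR-night and TR-day against TR-night, and rhythms 2 to 7 in AL, 4 to 8 in CR-night and 2 to 8 in TR-night. Psmb9 in CR-day against AL ran from -1.245 to 0.4283 and reversed without letter B. The GC correction gave 1 level call, 5 rhythms in AL and 0 in CR-day in BAT, and in liver 4 level calls for CR-day against AL, 21 changed rhythms for CR-day against CR-night and 1 and 26 rhythms in AL and CR-day. With its curve centred, an alternative chosen after seeing the data, there were 3 rhythms in CR-day BAT, 10, 20 and 8 changed rhythms for CR-day against AL, CR-day against CR-night and TR-day against AL, and 13 and 11 rhythms in CR-day and TR-day. DESeq2 gave 11 level calls, 6 changed rhythms and 4 and 9 rhythms in AL and CR-day BAT. Without the libraries far from the fit BAT had 1 changed rhythm and 0 rhythms in AL, and TR-day against AL 3 changed rhythms. Without a filter BAT had 0 rhythms in AL, and CR-day against AL 4 level calls. Without AL letter B and CR-day letter A, also chosen after seeing the data, level calls were 23, 4, 0 and 2 for CR-day against AL, CR-day against CR-night, CR-day against TR-day and TR-day against TR-night, changed rhythms 3 for CR-day against AL and rhythms 10 in TR-night. Without the libraries off their hour TR-day against AL gave 8 changed rhythms. The causes were not tested, and the shares of all genes called under these alternatives are not given here.

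Between liver libraries of the same letter the correlations of their deviations ran from -0.686 to 0.687, with a median of 0.0146 over 240 pairs. Between libraries of different letters the median was 0.0619 over 240 pairs. Correlations of both signs can cancel in a median, so these medians do not show that libraries of 1 letter share nothing else. With the replicate block CR-day had 6 rhythms and CR-day against AL 7 level calls, and none of 21 counts moved by over 1.5 times. That block is a single letter term shared by all regimens. It cannot absorb letter differences of opposite sign, for example Psmb5 in letter A over B at 1.85 in CR-day and -1.21 in AL (log2). The small movement therefore does not show that the letters are without effect. With 2 libraries per hour in liver and 1 in BAT, small amplitudes are near the limit of what these libraries can show.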
